A study of Mus musculus with 2 samples.

Results

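Cartilage owes its resistance to compression to a gel of proteoglycan held in a collagen network. Aggrecan, a core protein that carries many chondroitin sulphate chains, binds to hyaluronan, and link proteins lock this bond. Matrilins, cartilage oligomeric matrix protein and chondroadherin are adaptor proteins that tie the gel, the collagen fibrils and the chondrocyte surface to each other. At E14.5 much of the mouse skeleton is still a cartilage model. The 9 genes described here encode these non-collagen proteins: Acan (aggrecan), Hapln1 and Hapln3 (link proteins), Matn1, Matn2, Matn3 and Matn4 (matrilins), Comp and Chad (chondroadherin). Their probe sets were found by symbol in the array's annotation, without a filter on signal. The genes were chosen with earlier results of these data known. They are 9 of the 18194 genes named by a probe set with 1 symbol. Together they have 14 probe sets, 6 genes with 1 probe set each and 3 genes with several.

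Their transcripts were measured in total RNA of whole wild type embryos at E14.5 on 2 Affymetrix Mouse Genome arrays with 45101 probe sets each, which are duplicates of 1 condition. The study kept NMRI and C57/BL6 mice, and which of these strains the arrays used is not given in the sources used here. Nor is it given there whether embryos were pooled or whether the duplicates were separate embryos, so the spread between them may be technical. Signals are linear and scaled so that each array has a trimmed mean of 100. Because the embryo was taken whole, fewer cells of a type and less RNA per cell cannot be told apart, and the tissue that supplied a transcript was not measured. Probe sets differ in how strongly they respond, so no order of transcript abundance is read from their signals. A bound on the signal served as background. It was set from 83 probe sets for receptors of smell, pheromones and bitter taste, at their 95th percentile, and came to 27.6 on array 1 and 33.8 on array 2. Precision is limited by the number of arrays, and with 1 condition there is no test.

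Of the 9 genes, 7 (77.8%) lay above background on both arrays: Acan, the 4 matrilin genes, Hapln1 and Comp. Hapln3 and Chad were above it on array 1 only. Since the bound is higher on array 2, such a call does not need a drop in signal. Across all genes 65.7% were above background on both arrays, and 3.56% were above it on array 1 but not on array 2. The share depends on the number of probe sets, being 48.7% where a gene had a single probe set and 82.9% where it had several. Of the 6 cartilage matrix genes with 1 probe set, 4 passed (Acan, Matn1, Matn4 and Comp), and all 3 with several passed (Matn2, Matn3 and Hapln1). Among the probe sets, 12 of 14 were above background on both arrays, beside 55.7% of all probe sets with 1 symbol. Read by its probe set with the highest mean signal, each of the 7 genes was at least 3.29 times the bound on both arrays. By the same reading, 21.1% of all genes above background fell short of 2 times the bound on 1 array or both. None of the 7 did, but Matn3 was read by a probe set open to cross-hybridisation. Its other probe set stood at 2.03 and 1.68 times the bounds.

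**Figure D1:**
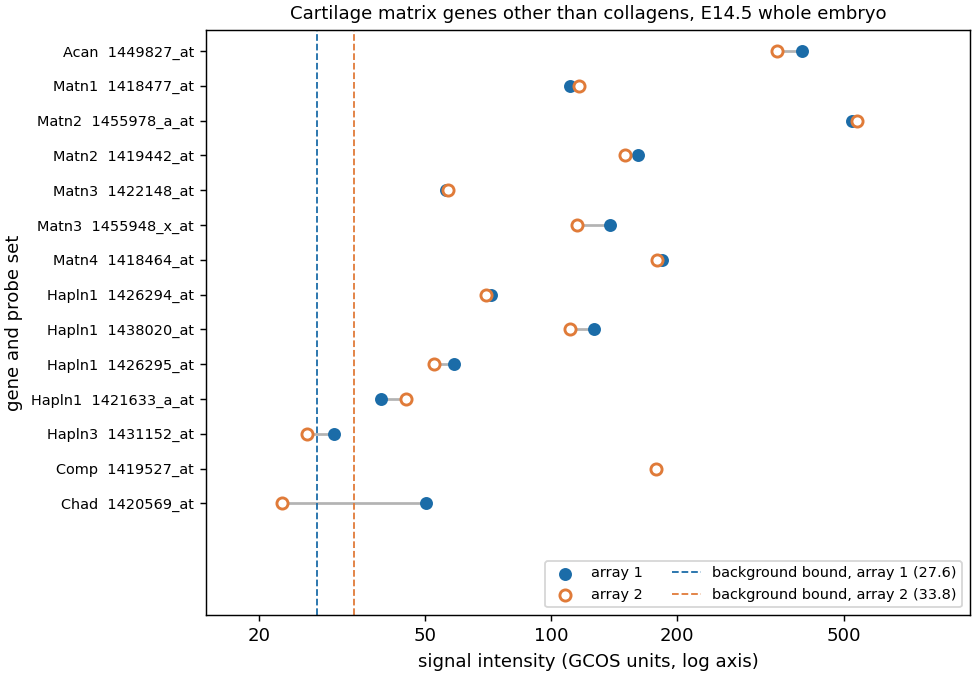
Signal of each of the 14 probe sets on array 1 (filled) and array 2 (open) on a log axis, joined by a line, with the background bound of each array (dashed). The duplicates of Comp overlap at 177.8 and 178.2, whereas Chad and Hapln3 lie to the right of the bound on array 1 and to its left on array 2.

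Acan, the core protein gene of the main cartilage proteoglycan, was read by 1 probe set (1449827_at), whose signal was 397 on array 1 and 346.5 on array 2. Both signals were more than 10 times the bound, at 14.4 and 10.3 times. The link protein gene Hapln1, whose product stabilises the bond between aggrecan and hyaluronan, was measured by 4 probe sets. Its probe set with the highest mean signal (1438020_at) had 126.8 and 111.2, and the others had 71.7 and 69.8 (1426294_at), 58.5 and 52.5 (1426295_at), and 39.1 and 44.9 (1421633_a_at). All 4 passed on both arrays, although their signals spanned 3.24-fold on array 1 and 2.48-fold on array 2. Signals of different probe sets of this gene thus cannot be compared as levels. Hapln3, a link protein gene that is also active outside cartilage, lay at the edge of background, with 30.3 on array 1 and 26.1 on array 2 (1431152_at). These were 1.10 and 0.77 times the bounds.

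In the mouse genome each link protein gene is the neighbour of a gene for a lectican, the proteoglycan family of aggrecan. In the RefSeq gene table of GRCm38.p6 no protein-coding gene lies between Acan and Hapln3 on chromosome 7, Vcan and Hapln1 on chromosome 13, Bcan and Hapln2 on chromosome 3, or Ncan and Hapln4 on chromosome 8. All 4 lectican genes were above background on both arrays, while of the link protein genes only Hapln1 was. Over all genes the share was 65.7%, with 82.9% for several probe sets and 48.7% for 1. Vcan (versican, of mesenchyme and other loose tissues) had 353.2 and 236.4, and Bcan and Ncan (brevican and neurocan, of nervous tissue) had 248.7 and 227.1 and 172.1 and 185.5. The Bcan values come from a probe set with the cross-hybridisation suffix, and its other probe set had 39.4 and 34.5, just over the bound on array 2. Hapln2 had 18.7 on both arrays with its brighter probe set, and Hapln4 had 17.5 and 11.4. Thus at 3 of the 4 pairs the lectican gene passed on both arrays and its neighbour did not. Vcan, Bcan and Ncan have several probe sets, and Acan, Hapln3 and Hapln4 have 1. How strongly each probe set responds was not measured.

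The neighbours Acan and Hapln3 differ in the sequence before their start sites. RefSeq promoter windows of 300 bases (250 before the start and 50 after it, GRCm38.p6) were listed for 7 of the 9 genes, in 8 windows, and not for Matn2 and Comp. The Acan window was 74.0% G and C with 31 CpG pairs, and that of Hapln3 was 57.0% with 9, beside medians of 52.7% and 7 over 32851 windows. Among genes that passed on both arrays, Hapln1 had 54.3% with 3, Matn1 61.3% with 6 and Matn3 62.7% with 15. Matn4, which passed too, had 64.0% with 19 and 52.7% with 9, and Chad, which did not, 61.0% with 13. Whether these shares go with the signal was not tested. Shown are the 250 bases before the starts of Acan and Hapln3. This pair was chosen because the genes lie next to each other and fell on different sides of the bound on array 2. Capitals mark TATAAA, the core of a TATA box, in either orientation. Acan lies on the plus strand (chr7:79052976-79053225) and Hapln3 on the minus strand (chr7:79131019-79131268), and both runs read from 5′ to 3′ on the strand of the gene.
Acan: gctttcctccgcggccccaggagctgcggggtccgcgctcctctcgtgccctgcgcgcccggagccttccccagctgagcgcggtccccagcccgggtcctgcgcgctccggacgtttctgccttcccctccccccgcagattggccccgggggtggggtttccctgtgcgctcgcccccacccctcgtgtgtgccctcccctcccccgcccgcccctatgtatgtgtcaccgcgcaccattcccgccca
Hapln3: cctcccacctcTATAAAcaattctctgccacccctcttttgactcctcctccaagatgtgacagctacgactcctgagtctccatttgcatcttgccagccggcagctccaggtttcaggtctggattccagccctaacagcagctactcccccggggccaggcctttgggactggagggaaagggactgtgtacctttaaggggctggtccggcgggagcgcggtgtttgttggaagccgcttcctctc
The match of Hapln3 begins 239 bases before the start, at position -239, far from where a TATA box lies, and Acan has none in this window.

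The matrilins are oligomeric proteins with von Willebrand factor A domains. Matn1 and Matn3 are best known from cartilage, and Matn2 and Matn4 from connective and nervous tissue as well. Matn1 had signals of 111.1 on array 1 and 116.8 on array 2 (1418477_at), 4.02 and 3.46 times the bounds. Matn4 had 183.7 and 179.3 (1418464_at). Both genes rest on 1 probe set.

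Matn2 and Matn3 were each read by a pair of probe sets that passed on both arrays and gave unequal signals. For Matn2 the brighter probe set (1455978_a_at) had 523.7 and 538.6 and the other (1419442_at) 161.7 and 150.1, a span of 3.24-fold on array 1 and 3.59-fold on array 2. For Matn3 the brighter probe set had 138.3 and 115.6. It is named 1455948_x_at, a suffix that Affymetrix gives to probe sets whose probes may also bind other transcripts, and it was the only one of the 14 with a suffix of that kind. The other Matn3 probe set (1422148_at) had 56.1 and 56.8, which is 2.03 times the bound on array 1 and 1.68 times on array 2. Matn3 thus passed without the probe set that is open to cross-hybridisation, with a signal nearer to the bound.

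Comp encodes a thrombospondin that binds collagen fibrils in cartilage and tendon, and mutations in it cause a human skeletal dysplasia. Its signals of 177.8 and 178.2 (1419527_at) differed by 0.22% of their mean, the closest duplicates among the 14 probe sets. The other 4 thrombospondin genes were above background as well. Thbs1 had 77.1 and 56.7, and Thbs2 had 233.8 and 230.5 with a probe set that carries the cross-hybridisation suffix, and 244 and 216 with its next.

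Chad encodes a leucine-rich repeat protein that binds collagen and cell surface integrins. Like Hapln3 it passed on array 1 only, with 50.2 on array 1 against 22.7 on array 2 (1420569_at). The first is 1.82 times the bound of its array and the second 0.67 times. Array 1 gave 2.21 times the signal of array 2. Since the array 2 signal is below background, the ratio is stated as at least 1.49-fold, the array 1 signal over the bound of array 2. Whether Chad transcript was present in this RNA is not settled by 1 probe set that passed on 1 of 2 arrays. A TATAAA match begins 28 bases before the Chad start, at position -28, the usual place of a TATA box. It is shown in capitals in the 250 bases before the start (chr11:94564797-94565046, plus strand, RefSeq, GRCm38.p6).
Chad: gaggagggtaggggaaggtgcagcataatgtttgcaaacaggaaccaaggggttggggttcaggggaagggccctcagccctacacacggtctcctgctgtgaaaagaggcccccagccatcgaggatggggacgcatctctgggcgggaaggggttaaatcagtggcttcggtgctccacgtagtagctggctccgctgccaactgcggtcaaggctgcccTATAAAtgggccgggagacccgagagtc
Of the 8 windows of the cartilage matrix genes, 2 held TATAAA or its reverse complement TTTATA (Chad and Hapln3), beside 13.6% of all windows of this length. ACAAAG and ACAATG, which resemble the sites bound by SOX factors, were searched on both strands as well. They were found in 0 of the 8 windows, beside 18.7% and 12.6% of all windows. The TATAAA matches did not overlap with another match. A match is a description of letters, and its absence says only that these letters are not in this window.

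Differences between the duplicates were read for genes above background on both arrays, which leaves out Chad and Hapln3. For the 7 genes above background the log2 difference (array 2 minus array 1, centred on the median of all probe sets above background) ranged from -0.27 for Matn3 to 0.06 for Matn1, with a median of -0.05. Over all 11933 genes with a difference the median was -0.02. Of the 7 genes 5 were lower on array 2 (Acan, Matn3, Matn4, Hapln1 and Comp), beside 53.7% of all genes. Comp, at -0.01, turned to between 0.00 and 0.02 without centring, with quantile normalization, with loess or with the 99th percentile bound. None of the 7 differed by more than 1.5-fold, beside 2.71% of all genes, so this does not set them apart.

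The spread between duplicates falls as the signal rises. Over all probe sets above background the SD of the log2 difference was 0.31 at mean signals up to 64, 0.28 from 64 to 128, 0.22 from 128 to 256, 0.18 from 256 to 512 and 0.16 above that. All 12 probe sets of the cartilage matrix genes above background lay inside the central 95% of probe sets of like signal. Chad, which the filter left out, had a measured difference of -1.16, with its array 2 signal below background. Hapln3, also left out, had -0.23. The range holds only probe sets above background on both arrays, so neither gene can be judged against it. The difference of Acan was -0.21, where the SD at its signal was 0.18. That of Matn3 was -0.27 with its brighter probe set and 0.01 with the other, where the SDs were 0.28 and 0.31. Unlike movement of these probe sets is thus not shown. For Hapln1 the 4 differences ran from -0.20 to 0.19, and for Matn2 they were 0.03 and -0.12. The 4 probe sets of Hapln1 thus spanned a wider range than the 7 genes did.

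**Figure D2:**
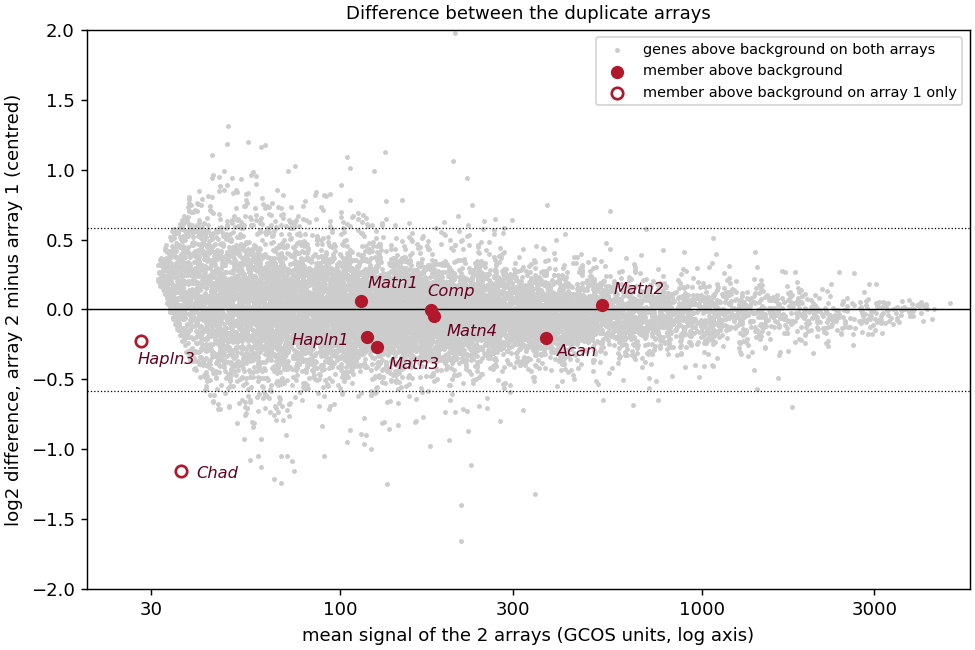
Log2 difference between the arrays (array 2 minus array 1, centred) against the mean signal on a log axis, for all genes above background (grey) and the 9 cartilage matrix genes (red), each by its probe set with the highest mean signal. Dotted lines mark 1.5-fold. The 7 genes above background (filled) lie between -0.27 and 0.06, and Hapln3 and Chad (open) are drawn at their measured signals, which are below background on array 2.

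Genes that act together with these proteins were counted in the same way. Their lists were chosen with earlier results of these data known, and the counts are descriptions, to be set beside 65.7% of all genes and 82.9% of genes with several probe sets. Of the cartilage collagen genes 8 of 8 passed, among them Col2a1 (1608.8 and 1438.8), Col9a1 and Col9a2. Col10a1, a marker of hypertrophic chondrocytes that was picked after its values were seen, had 65.7 and 53.2. Of 13 measured chondrocyte regulators 10 passed, including Sox9, the factor that directs chondrocyte fate, at 167.6 and 151.2, and its partners Sox5 (48.0 and 44.1) and Sox6 (456.7 and 532.2). The Sox6 values come from a probe set with the cross-hybridisation suffix, and its next probe set had 204.6 and 192.1. The regulators below background were Nkx3-2, Barx2 and Gdf5, a growth factor of forming joints with 22.4 and 32.6.

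Among 20 other non-collagen genes of cartilage matrix, 17 were above background, a share of 85.0%, and 16 without probe sets that carry a cross-hybridisation suffix. Cnmd (chondromodulin, an inhibitor of vessel growth) had 319.3 and 279.1, Snorc (a proteoglycan of chondrocytes) 127.2 and 148.4, and Ucma 28.0 and 36.3, close to the bound. Prg4, which encodes the lubricant of joint surfaces, was below it at 20.5 and 29.1, as was Ccn6 at 10.8 and 18.4, and Scrg1 passed on array 1 only at 34.5 and 30.4. Like Chad and Hapln3, Scrg1 has 1 probe set.

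The hyaluronan that aggrecan binds is made by the synthases Has1, Has2 and Has3. Has2 had signals of 63.0 and 65.3 and Has1 31.1 and 39.4, while Has3 was above the bound on array 1 only, at 27.8 and 28.0. The signals of Has3 were thus alike, and the bound of array 2 is the higher one. With receptors and other enzymes 7 of 8 measured genes of this list passed. The chondroitin sulphate chains of aggrecan are built by a series of transferases and need sulphate donors, and 17 of 20 measured genes for these steps passed. Of the xylosyltransferases that start a chain, Xylt2 was below the bound at 26.1 and 24.8, and Xylt1 was not analysed here. B4galt7, which adds the next sugar, had 56.3 and 56.4 with a probe set that carries the cross-hybridisation suffix, and 33.4 and 33.9 with its other, just over the bound on array 2. The other genes of this list below background were Chsy3 and Chst3.

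Enzymes that cleave aggrecan and matrilins, with their inhibitor Timp3, passed in 10 of 12 cases. The aggrecanase genes Adamts1 (146.4 and 132.1), Adamts4 (62.4 and 61.5) and Adamts5 (135.3 and 147.5) were among them. The collagenase gene Mmp13, which marks the end stage of the growth plate, passed on array 1 only at 32.2 and 26.6, and Mmp3 was below the bound at 19.5 and 31.0.

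**Figure D3:**
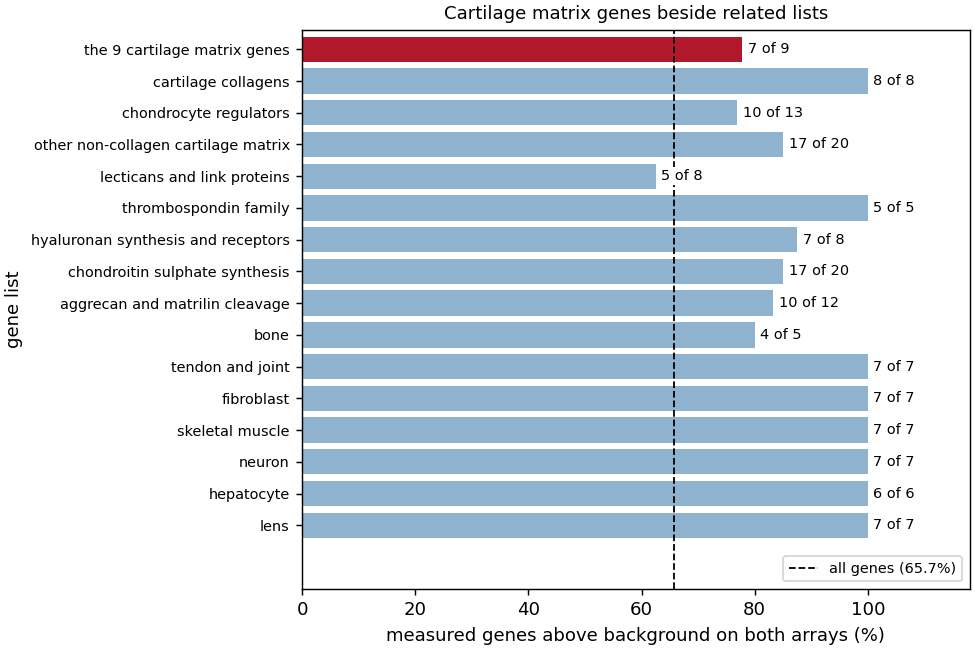
Percentage of measured genes in each list that passed the background bound on both arrays. Counts stand beside the bars, and the dashed line is the share over all genes. The cartilage matrix genes (red) reach 77.8%, all cartilage collagen genes pass, and lecticans and link proteins are lowest at 62.5%.

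Several proteins of the cartilage matrix are also made in other tissues of the embryo, so markers of these tissues are given beside the members. All 7 measured genes of tendon and joint (Scx, Tnmd and Mkx among them) were above background, and all 7 of fibroblasts (Col1a1, Col1a2 and Col3a1 among them). So were all 7 of skeletal muscle (such as Myog, Myod1 and Myh3), all 7 of neurons (such as Tubb3, Stmn2 and Dcx), all 6 of hepatocytes (such as Alb, Afp and Apoa1) and all 7 of lens (such as Cryaa, Cryab and Cryba1). Of 5 bone genes 4 passed, Sp7 and Ibsp included, and Phex did not. Without probe sets that carry a cross-hybridisation suffix the counts were 6 for tendon and joint and 3 for bone, since Scx (56.1 and 52.5) and Dmp1 (45.1 and 49.8) passed only with such a probe set. Bglap was not analysed here. The part of these tissues in the signals of Comp, Matn2 and Matn4 was not tested.

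Between the arrays the cartilage collagen genes had a median log2 difference of -0.23, with 6 of 8 lower on array 2, beside -0.05 for the 7 cartilage matrix genes above background. The summed signal of the collagen genes was 4255.3 on array 1 and 3787.7 on array 2. That of all 9 cartilage matrix genes, Chad and Hapln3 included, was 1738.9 and 1635. Such sums compare the arrays only, since probe sets differ in how strongly they respond. Chondrocyte regulators had a median of 0.12, with 4 of 10 lower on array 2, and the other non-collagen genes of cartilage one of -0.03. Medians were -0.19 for neurons and for hepatocytes, -0.11 for tendon and joint, -0.10 for fibroblasts, -0.14 for skeletal muscle and 0.19 for bone. Lens genes stood apart at -1.13, with all 7 lower on array 2 and a summed signal of 2094.8 against 1143.3. Their differences ran from -1.66 for Cryga to -0.06 for Cryab, which barely moved (404.0 and 389.5). All of these are differences of 1 array from 1 array, and their part in the signals of Chad and Hapln3 was not tested.

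**Figure D4:**
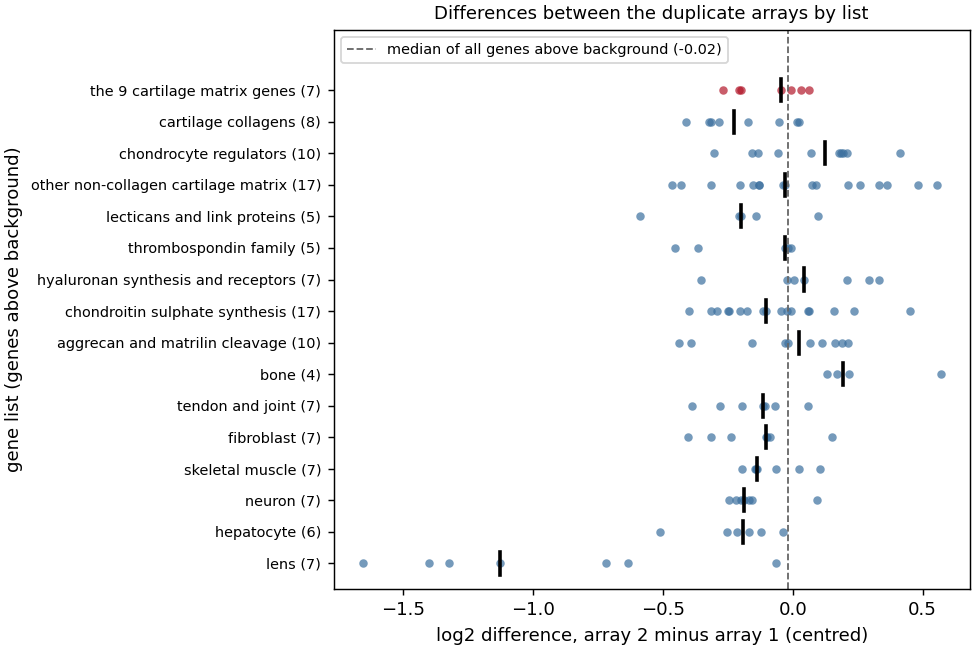
Log2 difference between the arrays (array 2 minus array 1, centred) of each gene above background, by list, with the median of each list (black bar) and of all genes (dashed line). The cartilage matrix genes (red) lie between -0.27 and 0.06 around a median of -0.05, and lens genes have a median of -1.13.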

How the data were processed

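Biotin-labelled target from total RNA of 2 samples was hybridised to 1 array each. The values deposited by the authors are linear signal intensities for each probe set, made with GCOS 1.3 (the submitters' processing notes name it). No log or centring had been applied. Detection calls were not used here, and a bound on the signal stood in for them. Symbols came from the platform annotation and were updated by gene identifier for 34754 of 34958 probe sets with 1 symbol, using RefSeq of GRCm38.p6. Another 932 probe sets had several symbols and 9211 were not listed, and these named no gene.

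A gene passed when each array had a probe set of it over the bound. Differences were log2(array 2 / array 1) of the probe set with the highest mean signal among those above background on both arrays, minus the median over all 22203 such probe sets. The members, gene lists and tests were chosen with earlier results of these data known. Named were all members, the first 3 genes of each list and the exceptions where 5 or fewer. Of 147 names in the other lists, which repeat 4 members, 140 matched. Protein sequences were not used here. The steps were tested on simulated arrays. There, silent genes were drawn from the receptor values that also set the bound, and expressed genes started well over it. The simulated spread was the same at all signals, so calls near the bound were not tested. Scripts ran in Python 3.11.15 (numpy 2.4.6, pandas 2.3.3, matplotlib 3.10.9), with loess from statsmodels 0.14.6 and trimmed means from scipy 1.17.1.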

Additional observations from a re-analysis of the deposited data

How the results depend on the processing

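The same 7 genes, without Chad and Hapln3, were above background with bounds at the 90th and 99th percentile of the receptor probe sets (62.0% to 68.9% of all genes), at the array median, after removal of cross-hybridising probe sets, and when 1 probe set had to pass on both arrays. With either array alone the count was 7 to 9 genes and 12 to 14 probe sets, since array 1 alone lets Chad and Hapln3 pass. All 105 alternative tallies of the related lists were within 1.5 times the count given, a wide tolerance for short lists that mostly pass. Within it, bone fell from 4 genes to 3 without cross-hybridising probe sets. Chondrocyte regulators went from 10 to 11 with the 90th percentile bound and to 9 with the 99th. The median difference of the members was -0.17 with no filter and a pseudocount of 16, where Chad and Hapln3 enter, and between -0.05 and -0.0047 otherwise. The number of members lower on array 2 ranged from 4 to 7. Without the probe set open to cross-hybridisation Matn3 moved from -0.27 to 0.01. No difference between the arrays can be had with 1 of them left out. No paired analysis was possible because there is 1 group.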
